A study of Mus musculus with 12 samples.

Results

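The measurements below describe 44 genes that encode potassium channel subunits and the KChIP proteins that bind to them, taken from arrays of sorted neurons of the mouse cerebral cortex. The members were given as a list of gene symbols, and each was represented by the probe set that carried its symbol alone and had the highest mean over the 12 arrays. They make up 44 of 19937 genes represented in this way. The list covers 13 families, from Kv4 and its KChIPs to the inward rectifiers and the K2P leak channels. Most Kv1 and all Kv3 genes lie outside the list, but Kcna3, Kcna4 and Kcna5 are on it and are Kv1 genes.

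The study asked which genes change as cortical interneurons and pyramidal cells wire up after birth. Interneurons (IN) were sorted for GFP from cortices of Nkx2-1Cre;RCE mice at postnatal day 10 (P10) and at P0. Pyramidal cells (Pyr) were sorted in the same way from NexCre;RCE mice at P12 and at P0, and here the labels name the somatosensory cortex. All mice were of the strain C57BL6 and carried the RCE reporter and a Cre allele. Each of the 4 groups (IN P10, IN P0, Pyr P12 and Pyr P0) had 3 arrays, the biological replicates A, B and C of the labels. The sources used here do not say how many mice went into each array. Nkx2-1 is active in progenitors of the medial ganglionic eminence and also in the lineage of some glia, whereas Nex (Neurod6) is active in young excitatory neurons. The dissected area was named differently for the 2 populations, so area and cell type cannot be told apart at either age. Between the older groups the age also differs (P10 and P12) and cannot be told apart from the cell type.

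Potassium channels return the membrane to rest after a spike and set how readily a neuron fires. Kv channels open on depolarization, and Kv4 channels, with their KChIPs, carry the fast transient A current of dendrites. Silent subunits form no channel alone but join Kv2 subunits and change them. KCNQ channels carry the M current, BK and SK channels respond to calcium, inward rectifiers hold the resting potential, GIRK channels open when G proteins are freed by inhibitory receptors, and K2P channels pass leak current. Cortical neurons lower their input resistance and sharpen their spikes in the first weeks after birth.

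Values are log2 RMA values, on which a step of 1 is a 2-fold difference, and they were compared only within a probe set. Array medians lay between 8.12 and 8.22. The background level of each array was set at the 95th percentile of 1203 probe sets for olfactory or vomeronasal receptors and lay between 7.13 and 7.45. Of the 44 members 43 exceeded it in at least 1 group and 42 in every group. Kcna5 was above background in no group, and Kcnj2 was above it on no interneuron array. The SD between arrays of a group had a median of 0.08 over members and groups and exceeded 0.3 for 1 member, Kcnj10.

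The labels were checked against markers of each cell type. All 10 interneuron markers were higher in IN than in Pyr at both ages, and 6 of 8 pyramidal markers were lower. Emx1 was lower in IN by under 2-fold. Cux2 went the other way at P0, with 12.06 in IN P0 and 11.35 in Pyr P0. At the older age it averaged 10.81 in IN P10 and 11.78 in Pyr P12. The sorted cells also held other signal. The summed linear signal of 8 oligodendrocyte precursor markers was 7392 to 12388 in IN P10 and 9136 to 11377 in IN P0, compared with 1616 to 1819 in Pyr P12 and 1597 to 1975 in Pyr P0. Of 10 astrocyte markers, 3 (Aqp4, Gja1 and Gjb6) were above background in no group and the other 7 were above it on at least 1 array of each group. The summed signal of all 10 was 2899 to 3558 in IN P10 and 2302 to 2631 in IN P0. It was 8607 to 8920 in Pyr P12 and 2158 to 2266 in Pyr P0. In Pyr P12 this sum came mostly from Slc1a2, which averaged 12.72 there and 8.55 in Pyr P0. Of the 10, 6 were higher and 2 lower in Pyr P12 than in Pyr P0 at an unadjusted p under 0.05 in limma. The lower ones were Fgfr3 (8.05 in Pyr P12 and 8.95 in Pyr P0) and Slc1a3 (7.97 and 8.43). Slc1a2 (4.17) and Aldh1l1 (1.29) were higher in Pyr P12 relative to Pyr P0, and Aldoc (1.29) in IN P10 relative to IN P0, as log2 differences. Of 9 markers of myelinating oligodendrocytes, 3 were higher in IN P10 relative to IN P0 (Cnp 1.89, Mag 1.84 and Cldn11 1.33). In IN P10 relative to Pyr P12, 4 of the 9 were higher. Their summed signal was 6206 to 8345 in IN P10 and 2693 to 2932 in IN P0. It was 2264 to 2383 in Pyr P12 and 1804 to 1904 in Pyr P0. Among markers of further cell types, 0 of 8 microglia and 0 of 8 endothelial and mural markers passed limma or SAM with the fold limit. At most 4 of each passed an unadjusted p under 0.05 in a comparison. Below the fold limit, some also had an adjusted p under 0.05 in limma. In IN P10 relative to IN P0, Csf1r (0.49, adjusted p = 0.00029), C1qb (0.47), Cx3cr1 (0.35) and C1qa (0.22), all of microglia, were higher. In Pyr P12 relative to Pyr P0, Csf1r (0.63), C1qb (0.48), Tmem119, P2ry12, Tek, Rgs5 and Abcc9 were higher and Cldn5 lower. Abcc9 was also lower in IN P10 relative to Pyr P12. In cells sorted in bulk, fewer cells of a type and less RNA per cell cannot be told apart.

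Most members that changed with age rose, and they rose in more cases in pyramidal cells. Here a gene is said to rise, fall or differ only where the adjusted p was under 0.05 and the fold over 2. Between IN P10 and IN P0, 16 of 44 members were higher in IN P10 and 0 lower, or 36.4% of members, whereas 4.19% of all 22961 probe sets were higher and 2.85% lower. No member had a 2-fold decrease, so SAM, a permutation-based method counted with the same fold limit, could only find 0 lower as well. Below that limit, 4 were lower at an adjusted p under 0.05 in limma. These were Kcnh3 (-0.81), Kcnk10 (-0.56), Kcnd3 (-0.52) and Kcnk2 (-0.37). Between Pyr P12 and Pyr P0, 24 members were higher in Pyr P12 and 2 lower, against 5.68% and 3.48% of all probe sets. The median log2 difference of the members was 0.66 in interneurons and 1.22 in pyramidal cells, and over all probe sets it was 0.00 and 0.06. By the adjusted p alone, 35 members passed in interneurons and 40 in pyramidal cells, but so did 45.5% and 54.7% of all probe sets. At a fold over 1.5, 26 members passed in interneurons, against 18.9% of all probe sets.

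Between the populations, members were lower in interneurons more often than higher. In IN P10, 6 members were higher and 15 lower than in Pyr P12, against 2.65% and 2.91% of all probe sets. The 15 include Kcnj2, whose IN P10 arrays were all below background, so its 2-fold call rests on values below background. Its bound against that level was only 1.07-fold, and its Pyr P12 mean was itself near background. In IN P0, 4 members were higher and 12 lower than in Pyr P0, against 1.90% and 1.74%. The median difference of members was -0.67 between the older groups and -0.22 at P0, beside -0.07 and 0.00 over all probe sets. By the adjusted p alone, 39 members passed at the older age and 35 at P0, against 46.6% and 22.4% of all probe sets. In all, 33 of 44 members differed in at least 1 of these 4 comparisons, against 15% of all probe sets. The 11 that differed in none were Kcna5, Kcnb2, Kcnd1, Kcnd3, Kcnj11, Kcnk2, Kcnk3, Kcnmb4, Kcnn1, Kcnn2 and Kcnq3.

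**Figure D1:**
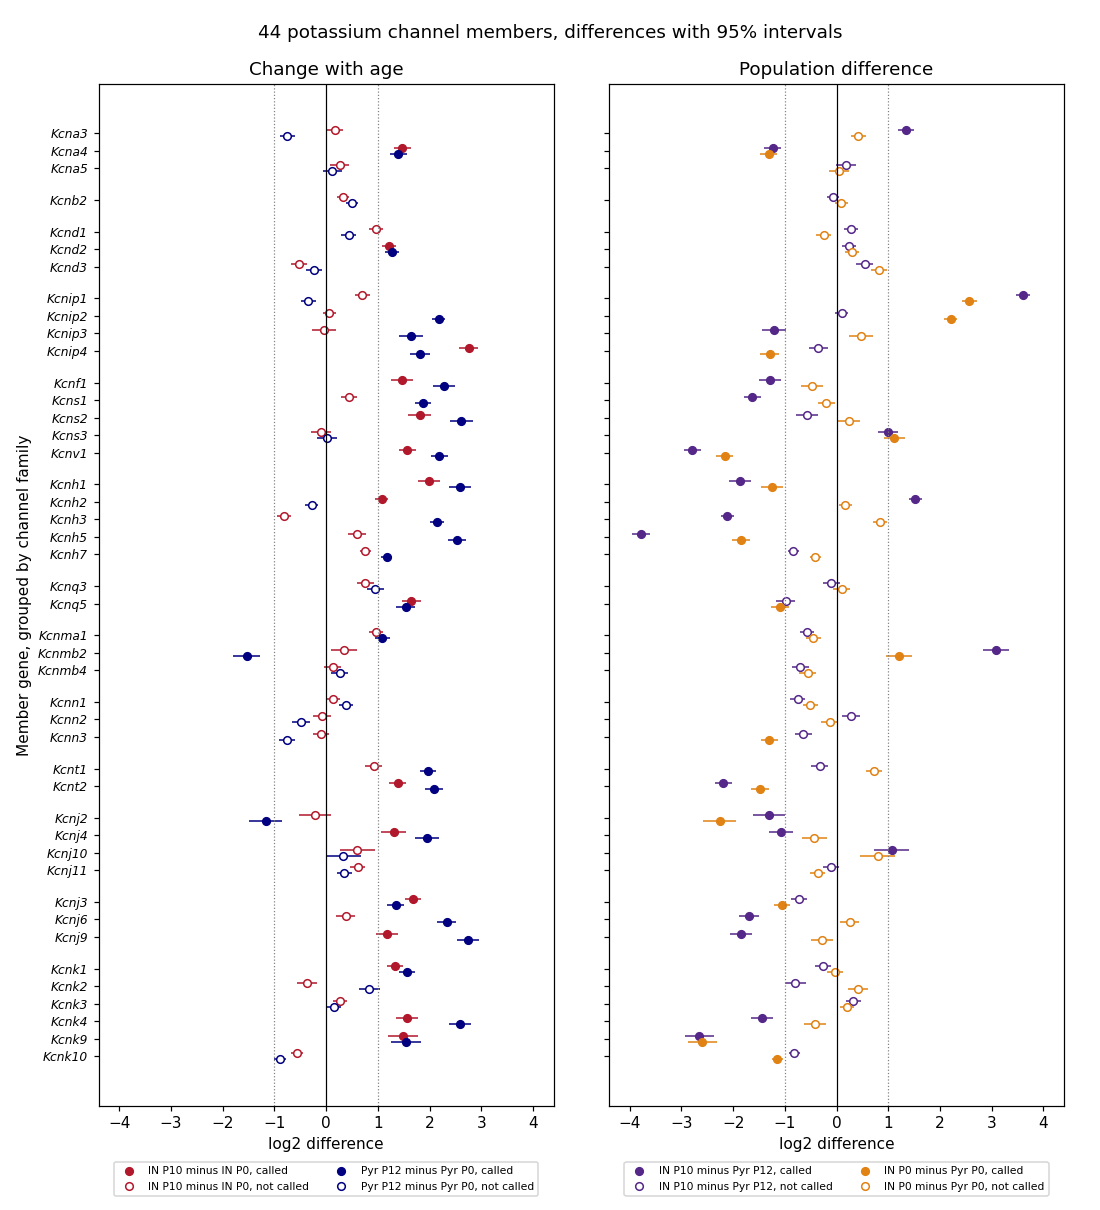
Log2 differences of the 44 members with 95% intervals from limma, with families separated by gaps. The left panel gives the change with age in interneurons and in pyramidal cells, the right panel the interneuron minus pyramidal difference at the older age and at P0, and filled points passed both thresholds. In the left panel 24 filled points of pyramidal cells and 16 of interneurons lie to the right of 1.

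Of the members with a single promoter entry, Kcnmb2 had the largest positive and Kcnh5 the largest negative difference between IN P10 and Pyr P12, so the 250 bases before their starts are shown from RefSeq (GRCm38.p6). Kcnmb2 lies at chr3:31902453-31902702 on the plus strand and Kcnh5 at chr12:75177333-75177582 on the minus strand, and each is read 5′ to 3′ along its gene. The motifs sought on both strands were an E-box of proneural factors (CAGATG), the short cyclic AMP response element (TGACG) and a homeodomain site (TAATTA). Capitals mark their matches.
Kcnmb2: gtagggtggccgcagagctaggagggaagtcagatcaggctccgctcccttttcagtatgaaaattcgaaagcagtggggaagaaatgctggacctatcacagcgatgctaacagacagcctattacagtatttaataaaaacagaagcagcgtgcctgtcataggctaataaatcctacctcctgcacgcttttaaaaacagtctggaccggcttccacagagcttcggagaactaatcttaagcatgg
Kcnh5: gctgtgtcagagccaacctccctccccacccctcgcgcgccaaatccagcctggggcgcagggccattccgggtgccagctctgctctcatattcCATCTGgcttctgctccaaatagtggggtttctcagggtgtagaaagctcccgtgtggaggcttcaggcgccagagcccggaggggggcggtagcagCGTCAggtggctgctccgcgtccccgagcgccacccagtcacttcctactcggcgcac
The Kcnmb2 window held 0 of them and had a GC content of 47.2%, whereas that of Kcnh5 held 2 matches, of the E-box and of the response element, at 65.6%. Of the members 33 had an entry, with 46 windows in all. CAGATG was found in 9 of these windows (19.6%, against 14.4% of 32851 windows of all genes), TGACG in 4 (8.70%, against 17.8%) and TAATTA in 0 (against 4.84%). The median GC content was 62.0% in member windows and 52.4% in all windows. A match is a match of letters and was not tested as a site.

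Of the A-type channel genes, 1 of 3 Kv4 pore genes rose in each population, with 1 of 4 KChIP genes in interneurons and 3 in pyramidal cells. The Kv4 gene was Kcnd2, whose product carries A current in dendrites. It averaged 12.55 ± 0.05 in IN P10 and 11.33 ± 0.05 in IN P0, and 12.31 ± 0.11 in Pyr P12 and 11.04 ± 0.05 in Pyr P0 (SD, n = 3 each), which gave log2 differences of 1.22 and 1.27. Kcnd1 was 0.96 higher in IN P10 relative to IN P0, close to the 2-fold limit, and reached 1.03 without array A of IN P10. Kcnd3 had differences with age of -0.52 in interneurons and -0.24 in pyramidal cells and did not pass the fold limit. Between the populations no Kv4 gene differed by over 2-fold at either age.

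Kcnip4 encodes KChIP4, a member of this calcium-binding family. It had 11.20, 11.33 and 11.22 in IN P10 and 8.58, 8.44 and 8.46 in IN P0. In pyramidal cells it had 11.76, 11.57 and 11.48 at P12 and 9.95, 9.63 and 9.78 at P0. Its rise in interneurons, 2.76 ± 0.09 (SE, adjusted p = 3.99e-11) or 6.76-fold, was the largest of all members in that comparison. At P0 it was lower in IN than in Pyr (log2 difference -1.29 ± 0.09), and at the older age the difference was -0.35.

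Kcnip1, a KChIP of GABAergic neurons, was higher in interneurons at both ages. Its values were 12.53, 12.53 and 12.54 in IN P10 and 11.88, 11.78 and 11.82 in IN P0, compared with 8.79, 8.89 and 9.07 in Pyr P12 and 9.24, 9.31 and 9.23 in Pyr P0. The difference between populations was 3.61 ± 0.07 (adjusted p = 3.11e-13) at the older age and 2.57 ± 0.07 at P0. Its changes with age, 0.70 in interneurons and -0.34 in pyramidal cells, were each under 2-fold, but the difference between them was 1.04 ± 0.09 (adjusted p = 1.68e-06). Without array A of Pyr P12 that difference was 0.98, under the fold limit. The interneuron markers moved alongside in pyramidal cells, where 7 of 10 were lower in Pyr P12 than in Pyr P0, with summed signals of 2166 to 2393 in Pyr P12 and 5224 to 7348 in Pyr P0, and their part in the result was not tested.

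Kcnip2 and Kcnip3 rose with age in pyramidal cells, and neither passed the test in interneurons. Kcnip2 had 11.47, 11.50 and 11.50 in IN P10 and 11.51, 11.34 and 11.44 in IN P0, so the interneuron groups overlapped. In pyramidal cells it had 11.34, 11.36 and 11.47 at P12 and 9.15, 9.24 and 9.26 at P0, a rise of 2.17 ± 0.06 (adjusted p = 4.37e-12). Interneurons were 2.21 above pyramidal cells at P0, and 0.10 (adjusted p = 0.196) above them at the older age. The difference of the age changes was -2.11 ± 0.08 (adjusted p = 1.10e-09).

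Kcnip3 encodes KChIP3, known also as DREAM and calsenilin. Its values were 10.83, 10.49 and 10.37 in IN P10 and 10.46, 10.65 and 10.72 in IN P0, which overlapped, and 11.88, 11.84 and 11.63 in Pyr P12 and 10.16, 10.10 and 10.14 in Pyr P0. It rose by 1.65 ± 0.11 in pyramidal cells against -0.05 ± 0.11 in interneurons, and the difference was -1.69 ± 0.15 (adjusted p = 1.90e-06). Of the 6 measured partner proteins of Kv4 and BK channels, 1 was higher in IN P10 relative to IN P0 and 2 in Pyr P12 than in Pyr P0. Dpp10, an auxiliary subunit of Kv4, rose by 1.44 in pyramidal cells and was 1.39 higher in IN P0 relative to Pyr P0. Lrrc55, an auxiliary subunit of BK, rose by 1.25 in interneurons and 1.09 in pyramidal cells.

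Of the Kv1 and Kv2 members, Kcna4, which encodes the inactivating Kv1.4, rose in both populations. It averaged 8.69 ± 0.03 in IN P10 and 7.21 ± 0.07 in IN P0, and 9.92 ± 0.06 in Pyr P12 and 8.52 ± 0.18 in Pyr P0, with 1 of the 3 IN P0 arrays above background. It was lower in interneurons at both ages (-1.23 and -1.31). Kcna3, which encodes Kv1.3, was 1.34 higher in IN P10 relative to Pyr P12, with means of 11.55 ± 0.01 and 10.20 ± 0.16. Its difference at P0, 0.42, was under 2-fold. Kcnb2, a pore subunit of Kv2, differed by at most 0.50 in any of the 4 comparisons.

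Of the 5 silent Kv subunit genes, 3 rose in interneurons and 4 in pyramidal cells, and 3 were lower in IN P10 relative to Pyr P12. Kcnv1 encodes Kv8.1 and had 9.72, 9.86 and 9.81 in IN P10 and 8.24, 8.38 and 8.05 in IN P0. In pyramidal cells it had 12.53, 12.68 and 12.53 at P12 and 10.36, 10.36 and 10.45 at P0. The lowest Pyr P0 array thus lay above the highest IN P10 array, and the population differences were -2.79 ± 0.08 (adjusted p = 9.58e-12) and -2.16 ± 0.08 (adjusted p = 2.63e-10).

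Kcns2, which encodes Kv9.2, had 9.20, 9.50 and 9.66 in IN P10 and 7.77, 7.63 and 7.52 in IN P0, and 10.09, 10.03 and 9.94 in Pyr P12 and 7.33, 7.39 and 7.51 in Pyr P0. It rose in both populations, by 1.81 ± 0.10 in interneurons and by 2.62 ± 0.10, or 6.13-fold, in pyramidal cells. Kcns1, which encodes Kv9.1, had 9.19, 9.26 and 9.25 in IN P10 and 8.68, 8.80 and 8.88 in IN P0, compared with 10.86, 10.94 and 10.79 in Pyr P12 and 8.83, 9.07 and 9.07 in Pyr P0. Its rise of 1.88 in pyramidal cells exceeded the 0.44 in interneurons, and the difference between them was -1.43 ± 0.11 (adjusted p = 3.11e-07).

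Kcnf1, which encodes Kv5.1, rose by 1.46 in interneurons and 2.28 in pyramidal cells. Kcns3, which encodes Kv9.3 and is known from parvalbumin interneurons, was the silent subunit higher in interneurons. It averaged 9.63 ± 0.13 in IN P10 and 9.72 ± 0.08 in IN P0, compared with 8.63 ± 0.12 in Pyr P12 and 8.60 ± 0.15 in Pyr P0. The difference at P0 was 1.12. The difference at the older age, 1.00, stood at the fold limit and fell under it without IN P10 B (0.95), IN P10 C (0.98) or Pyr P12 C (0.94).

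The EAG, ERG and ELK family held the largest difference between the populations. Kcnh5 encodes an EAG channel and had 8.98, 9.23 and 9.28 in IN P10 and 8.57, 8.68 and 8.46 in IN P0. In pyramidal cells it had 12.87, 12.99 and 12.99 at P12 and 10.50, 10.43 and 10.34 at P0. Its difference between IN P10 and Pyr P12 was -3.79 ± 0.08 (adjusted p = 1.05e-12), or 13.8-fold, the largest of any member in the 4 comparisons. It rose by 2.53 in pyramidal cells, against 0.59 in interneurons, and the difference of these changes was -1.94 ± 0.12 (adjusted p = 4.93e-08).

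Kcnh3, an ELK channel gene of the forebrain, rose in pyramidal cells and passed no 2-fold test with age in interneurons. Its values were 9.41, 9.56 and 9.63 in IN P10 and 10.34, 10.33 and 10.36 in IN P0, and 11.66, 11.62 and 11.67 in Pyr P12 and 9.43, 9.49 and 9.58 in Pyr P0. All 3 IN P10 arrays were below all 3 IN P0 arrays (log2 difference -0.81 ± 0.06), which was under 2-fold, and the rise in pyramidal cells was 2.15 ± 0.06 (adjusted p = 6.47e-12). The difference of the changes, -2.96 ± 0.09 (adjusted p = 1.25e-10), was the largest of the 44 members. In interneurons 4 of 8 pyramidal markers were also lower in IN P10 relative to IN P0, with summed signals of 3619 to 3882 in IN P10 and 8557 to 10811 in IN P0, and their part in the result was not tested.

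Kcnh1, the founding EAG gene, rose in both populations and stayed lower in interneurons. It had 10.78, 10.75 and 10.79 in IN P10 and 8.88, 8.71 and 8.76 in IN P0, compared with 12.53, 12.72 and 12.64 in Pyr P12 and 9.76, 10.22 and 10.13 in Pyr P0. The rises were 1.99 ± 0.10 and 2.59 ± 0.10, and the population differences -1.86 and -1.25. The 2 ERG genes did not follow one pattern. Kcnh7 rose by 1.18 in pyramidal cells and differed by 0.76 in interneurons.

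Kcnh2, which encodes the ERG1 channel, was the only member that rose in interneurons and not in pyramidal cells. Its values were 10.51, 10.48 and 10.61 in IN P10 and 9.48, 9.54 and 9.36 in IN P0, compared with 9.01, 9.02 and 9.01 in Pyr P12 and 9.32, 9.28 and 9.27 in Pyr P0. The rise was 1.08 ± 0.06 (adjusted p = 3.42e-09), beside -0.28 ± 0.06 in pyramidal cells, and the difference of the changes was 1.35 ± 0.08 (adjusted p = 4.29e-08). It was 1.52 higher in IN P10 relative to Pyr P12, whereas at P0 the difference was 0.17.

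**Figure D2:**
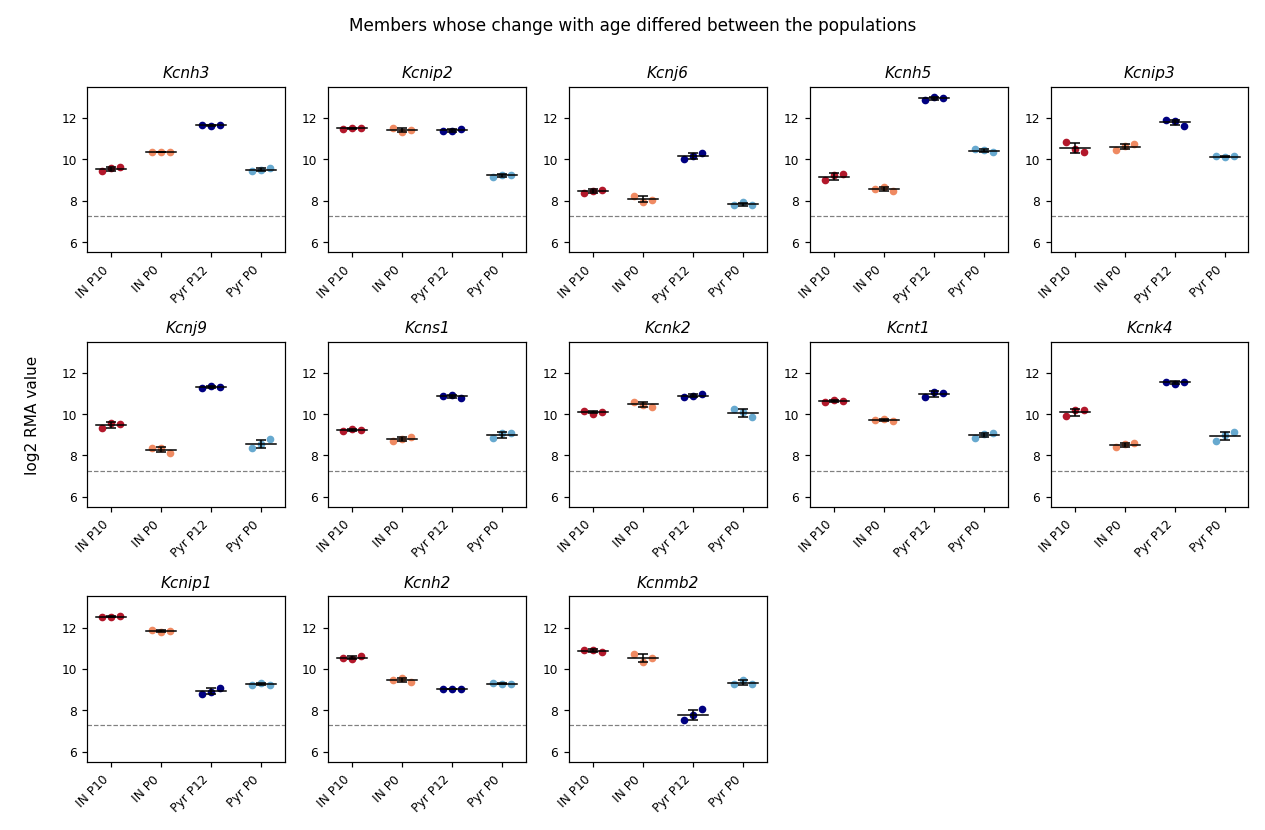
Log2 RMA values of the 13 members whose change with age differed between interneurons and pyramidal cells. Points are single arrays, bars the mean and SD (n = 3), and the dashed line the mean background level. From Kcnh3 at -2.96 to Kcnk4 at -1.02 the change was smaller in interneurons, and for Kcnip1, Kcnh2 and Kcnmb2 it was larger.

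Of the KCNQ genes of the M current, Kcnq5 rose in both populations. It had 11.72, 11.77 and 11.75 in IN P10 and 10.17, 10.23 and 9.89 in IN P0, compared with 12.75, 12.67 and 12.76 in Pyr P12 and 11.11, 11.33 and 11.13 in Pyr P0. The rises were 1.65 ± 0.08 in interneurons and 1.54 ± 0.08 in pyramidal cells. At P0 it was lower in interneurons (log2 difference -1.09), which was -0.99 without IN P0 C. Between the older groups it differed by -0.98, which became a called difference without Pyr P12 B (-1.01) and after a second quantile normalization (-1.0). Kcnq3 had age changes of 0.75 and 0.95 and population differences of -0.10 and 0.10, all under 2-fold.

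Among the calcium-activated channels, the BK auxiliary subunit Kcnmb2, which makes BK current inactivate, fell with age in pyramidal cells. It had 10.91, 10.92 and 10.80 in IN P10 and 10.73, 10.35 and 10.53 in IN P0, and 7.54, 7.77 and 8.04 in Pyr P12 and 9.27, 9.46 and 9.25 in Pyr P0. It fell by 1.54 ± 0.12 on the log2 scale in pyramidal cells (adjusted p = 8.48e-08) and differed by 0.34 in interneurons. The interneuron excess was 3.09 ± 0.12, or 8.51-fold, at the older age and 1.21 ± 0.12 at P0, and the difference of the age changes was 1.88 ± 0.17 (adjusted p = 1.57e-06). As for Kcnip1, the fall of 7 of 10 interneuron markers in Pyr P12 stands beside this value, with a median of -1.50, and its part was not tested.

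The BK pore gene Kcnma1 averaged 11.87 ± 0.04 in IN P10 and 10.90 ± 0.07 in IN P0, and 12.44 ± 0.09 in Pyr P12 and 11.35 ± 0.10 in Pyr P0. The differences with age were 0.97 in interneurons, or 1.01 without IN P0 C, and 1.09 in pyramidal cells. A second probe set of Kcnma1 averaged 6.0 to 6.14 in the 4 groups, below background, and the mean of both probe sets gave 0.49 in pyramidal cells. Kcnmb4, the neuronal BK auxiliary subunit, had population differences of -0.70 at the older age and -0.56 at P0, under 2-fold. The SK genes Kcnn1, Kcnn2 and Kcnn3 had no difference with age over 2-fold. Kcnn3 was lower in IN P0 relative to Pyr P0 (log2 difference -1.30), with means of 8.34 ± 0.13 and 9.64 ± 0.08.

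Both sodium-activated channel genes rose in pyramidal cells. Kcnt1, which encodes Slack, had 10.58, 10.68 and 10.66 in IN P10 and 9.72, 9.78 and 9.66 in IN P0, and 10.81, 11.05 and 11.03 in Pyr P12 and 8.86, 9.05 and 9.06 in Pyr P0. The changes were 0.92 in interneurons and 1.97 in pyramidal cells, a difference of -1.05 ± 0.11 (adjusted p = 5.06e-06) that was -0.99 without Pyr P0 A and after a second quantile normalization. Kcnt2, which encodes Slick, rose by 1.38 in interneurons and 2.09 in pyramidal cells and was lower in interneurons at both ages (-2.19 and -1.48).

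All 3 GIRK subunit genes rose in pyramidal cells and 2 of them in interneurons. Kcnj3, which encodes GIRK1, had 11.12, 11.02 and 11.07 in IN P10 and 9.57, 9.22 and 9.39 in IN P0, and 11.79, 11.78 and 11.80 in Pyr P12 and 10.44, 10.48 and 10.43 in Pyr P0. Its rise was 1.68 ± 0.07 in interneurons and 1.34 ± 0.07 in pyramidal cells. At P0 it was lower in interneurons (log2 difference -1.06), which was -0.97 without IN P0 B.

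Kcnj6 encodes GIRK2, a partner of GIRK1 in the channel. It had 8.35, 8.49 and 8.53 in IN P10 and 8.25, 7.93 and 8.06 in IN P0, compared with 10.02, 10.16 and 10.28 in Pyr P12 and 7.79, 7.92 and 7.77 in Pyr P0. It rose by 2.33 ± 0.09 in pyramidal cells (adjusted p = 7.65e-11) and differed by 0.38 ± 0.09 in interneurons, and the difference of the changes was -1.95 ± 0.12 (adjusted p = 7.70e-08). IN P10 was lower than Pyr P12 (log2 difference -1.70), while at P0 the difference was 0.25 (adjusted p = 0.0531).

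Kcnj9, which encodes GIRK3, had 9.30, 9.55 and 9.53 in IN P10 and 8.34, 8.38 and 8.14 in IN P0, and 11.25, 11.38 and 11.29 in Pyr P12 and 8.37, 8.56 and 8.78 in Pyr P0. It rose in both populations, by 1.17 ± 0.10 in interneurons and by 2.74 ± 0.10, or 6.69-fold, in pyramidal cells, the largest rise of any member in pyramidal cells. The difference was -1.57 ± 0.14 (adjusted p = 2.09e-06). The P0 groups overlapped, and IN P10 was lower than Pyr P12 (log2 difference -1.85).

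Of 16 measured receptors and regulators that act on GIRK channels, 8 rose in interneurons and 8 in pyramidal cells, and 0 fell by over 2-fold. Below that limit, Gng2 was lower with age in interneurons (-0.44, adjusted p = 3.29e-06 in limma) and in pyramidal cells (-0.51, adjusted p = 6.24e-07). At an unadjusted p under 0.05, 1 gene was lower in interneurons and 2 in pyramidal cells. Rgs4, which speeds the shut-off of G protein signals, rose by 2.84 and 3.39, and Sstr4, a somatostatin receptor gene, by 2.28 and 2.38. Oprd1, the delta opioid receptor gene, rose by 1.81 in interneurons and Chrm4, a muscarinic receptor gene, by 2.07 in pyramidal cells. Between the older groups 2 were higher and 4 lower in IN P10, among them Oprd1 (2.04) and Drd2 (1.61), a dopamine receptor gene, and Sstr2 (-2.33), another somatostatin receptor gene, and Rgs4 (-1.79). Sstr2 was also lower in IN P0 relative to Pyr P0 (-1.93).

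The other inward rectifiers went different ways. Kcnj2, which encodes Kir2.1, had 6.01, 6.02 and 6.04 in IN P10 and 5.94, 6.49 and 6.29 in IN P0, all below background, and 7.02, 7.61 and 7.38 in Pyr P12 and 8.52, 8.65 and 8.35 in Pyr P0. It fell by 1.17 ± 0.14 on the log2 scale in pyramidal cells (adjusted p = 1.12e-05), and 2 of 3 Pyr P12 arrays were above background. Set against the background level, it was at least 2.42-fold lower in IN P0 relative to Pyr P0 (adjusted p = 4.41e-08). The same bound for IN P10 relative to Pyr P12 was 1.07-fold. The Pyr P12 mean of 7.34 lay under the mean background of its own arrays (7.37), so no difference is read from that bound. Kcnj4, which encodes Kir2.3, rose by 1.31 in interneurons and 1.95 in pyramidal cells and was lower in IN P10 relative to Pyr P12 (log2 difference -1.07). Kcnj11, the pore of ATP-sensitive channels, had no difference over 2-fold.

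Kcnj10, which encodes Kir4.1 and is known from glia, had 9.36, 8.58 and 8.80 in IN P10 and 8.24, 8.33 and 8.37 in IN P0, compared with 7.86, 7.97 and 7.70 in Pyr P12 and 7.31, 7.56 and 7.67 in Pyr P0. IN P10 exceeded Pyr P12 by 1.07 ± 0.16 (adjusted p = 7.82e-05), which was 0.85 without IN P10 A and 1.00, under the limit, without Pyr P12 C. The array IN P10 A also had the highest signal of oligodendrocyte precursor markers in its group (12388, against 7392 and 8176) and of markers of myelinating oligodendrocytes (8345, against 6206 and 6284). All 8 precursor markers were higher in IN P10 relative to Pyr P12, and in Pyr P12 the myelin markers summed to 2264 to 2383. It had the highest sum of astrocyte markers too (3558, against 2964 and 2899), with Aldoc at 10.24 (9.84 and 9.74 in B and C), Slc1a3 at 8.66 (8.13 and 8.19) and S100b at 8.31 (7.98 and 8.08). The part of these markers in the Kcnj10 value was not tested.

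Of the 6 K2P genes, 3 rose in each population (Kcnk1, Kcnk4 and Kcnk9). Kcnk9, which encodes the acid-sensitive TASK-3, had 8.93, 9.16 and 9.34 in IN P10 and 7.45, 7.82 and 7.70 in IN P0, compared with 11.72, 11.86 and 11.82 in Pyr P12 and 9.96, 10.32 and 10.48 in Pyr P0. Every pyramidal array was above every interneuron array. The population difference was -2.65 ± 0.13 (adjusted p = 2.09e-09) at the older age and -2.59 ± 0.13 (adjusted p = 4.93e-09) at P0, and the rise with age was 1.49 in interneurons and 1.55 in pyramidal cells. The difference between the rises was -0.06 ± 0.19 (adjusted p = 0.841).

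Kcnk4, which encodes the mechanically gated TRAAK, had 9.90, 10.18 and 10.17 in IN P10 and 8.41, 8.55 and 8.61 in IN P0, and 11.56, 11.47 and 11.56 in Pyr P12 and 8.71, 8.97 and 9.13 in Pyr P0. It rose by 1.56 and 2.59, and the difference of -1.02 ± 0.14 (adjusted p = 0.000106) lay near the fold limit. That difference was -0.93 without IN P10 A, -0.98 without IN P0 C and -0.91 without Pyr P0 A.

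Kcnk2, which encodes the related TREK-1, had 10.14, 10.02 and 10.12 in IN P10 and 10.60, 10.45 and 10.34 in IN P0, and 10.82, 10.87 and 10.97 in Pyr P12 and 10.23, 10.09 and 9.84 in Pyr P0. Neither age change was over 2-fold (-0.37 in interneurons and 0.84 in pyramidal cells), but the arrays moved in opposite directions and the difference was -1.21 ± 0.13 (adjusted p = 1.00e-05). Kcnk10, which encodes TREK-2, was lower in IN P0 relative to Pyr P0 (log2 difference -1.14), with means of 10.13 ± 0.04 and 11.27 ± 0.05. Kcnk3, which encodes TASK-1, had differences of at most 0.33 in the 4 comparisons. Kcnk1, which encodes TWIK-1, rose by 1.33 in interneurons and 1.56 in pyramidal cells.

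**Figure D3:**
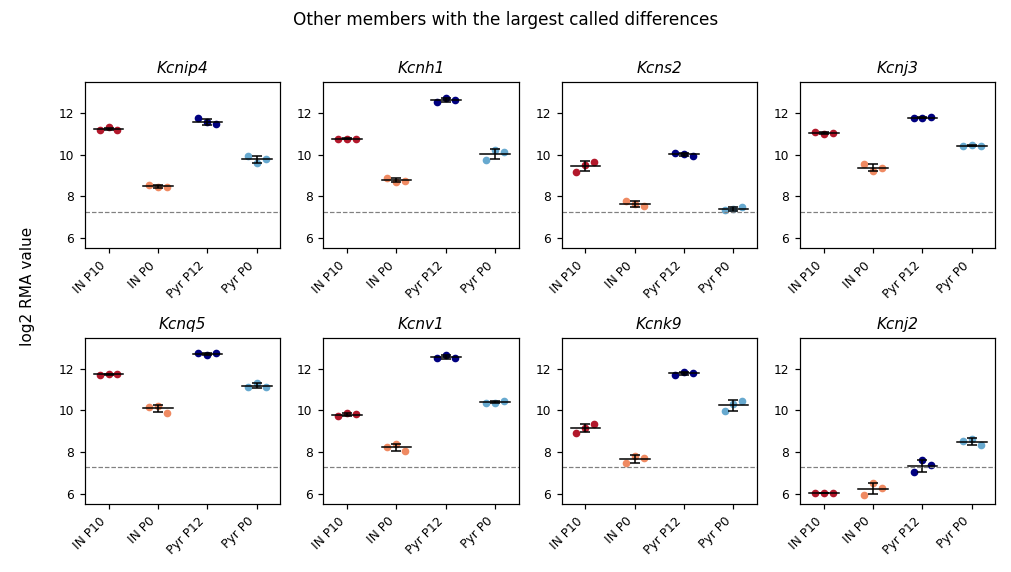
Log2 RMA values of 8 further members among the 5 largest differences of a comparison. Points are single arrays, bars the mean and SD (n = 3), and the dashed line the mean background level. Kcnip4 had the largest rise in interneurons (2.76), Kcnv1 and Kcnk9 were lower in interneurons at both ages, and Kcnj2 was below the line on every interneuron array.

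Across the members, 15 rose in both populations, 9 passed the test upward in pyramidal cells alone (Kcnh3, Kcnh5, Kcnh7, Kcnip2, Kcnip3, Kcnj6, Kcnma1, Kcns1 and Kcnt1) and 1 in interneurons alone (Kcnh2). Of the 9, 7 also had a called difference between the age changes, and Kcnh7 and Kcnma1 did not (-0.42 and -0.12). By sign alone, 11 of the 15 shared members had the larger change in pyramidal cells and 4 in interneurons. For Kcnd2, Kcnk9, Kcna4, Kcnq5 and Kcnk1 the adjusted p of that difference was 0.102 or more in limma. For Kcnj9 and Kcnk4 the difference itself was over 2-fold. The shares of all probe sets that rose in both populations, or in 1 alone, were not counted. In all, 13 of 44 members had a called difference between the age changes, 3 higher and 10 lower in interneurons, against 2.24% and 2.63% of all probe sets. At a fold over 1.5 this number was 23 (12.7% of all probe sets) and by the adjusted p alone 30 (32.1%). Over the 44 members the 2 age changes, which share no arrays, had a Pearson correlation of 0.56 and a Spearman correlation of 0.57, across genes that are not independent replicates, and 0.67 and 0.64 over all probe sets.

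**Figure D4:**
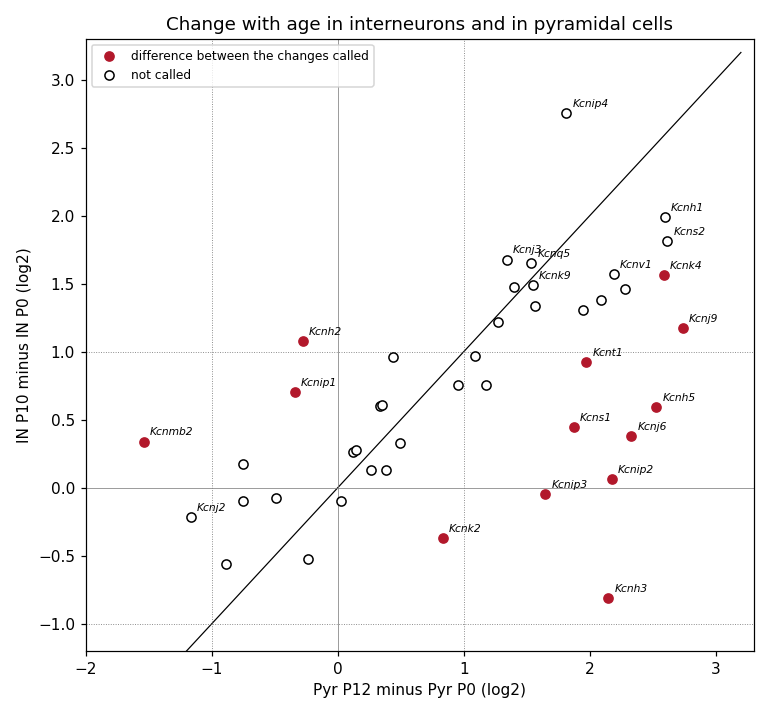
Change with age of each member in interneurons (vertical axis, IN P10 minus IN P0) against pyramidal cells (horizontal axis, Pyr P12 minus Pyr P0), both log2. The diagonal marks equal changes, dotted lines a 2-fold change, and filled points the 13 members with a called difference between the changes. Kcnh3 lies farthest below the diagonal (-2.96) and Kcnmb2 farthest above it (1.88).

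The population differences of some members passed the test at both ages and those of others at one age. Kcnip1, Kcnmb2 and Kcns3 were higher in interneurons at both ages. Kcna4, Kcnh1, Kcnh5, Kcnk9, Kcnt2 and Kcnv1 were lower at both. Kcnj2 was lower in IN P0, and in IN P10 it passed only on values below background. At the older age alone 3 were higher (Kcna3, Kcnh2 and Kcnj10) and 8 lower (Kcnf1, Kcnh3, Kcnip3, Kcnj4, Kcnj6, Kcnj9, Kcnk4 and Kcns1). At P0 alone Kcnip2 was higher, and Kcnip4, Kcnj3, Kcnk10, Kcnn3 and Kcnq5 were lower. Passing at one age and not at the other is not in itself a difference between the ages. Of the members passing at the older age alone, the difference of the age changes was called for 1 of the 3 higher (Kcnh2) and 6 of the 8 lower. Kcnf1 and Kcnj4 were the exceptions among the lower. At P0 alone it was called for Kcnip2 and for 0 of the 5 lower. For Kcnq5 it was 0.11 (adjusted p = 0.508 in limma).

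Of 43 measured potassium channel genes outside the list, 29 to 31 were above background in each group, whereas 42 of the 44 members were above it in every group. In this second list 8 genes were higher and 1 lower in IN P10 relative to IN P0, and 6 were higher and 0 lower in Pyr P12 than in Pyr P0. None of them was 2-fold lower in Pyr P12, so SAM with the same fold limit could only give 0 lower too. Without a fold limit, 5 were lower in Pyr P12 at an unadjusted p under 0.05 in limma. Of these, Kcnh8 (-0.65), Kcne1, Kcne2 and Kcnn4 also had an adjusted p under 0.05. Between populations 3 were higher and 1 lower in IN P10 relative to Pyr P12, and 3 were higher and 2 lower in IN P0 relative to Pyr P0. Their median age change, which includes the genes below background, was -0.01 in interneurons and 0.09 in pyramidal cells. The members and this list were chosen with earlier results of these data known, so setting them side by side is not a test. Kcnab1, a cytoplasmic partner of Kv1 channels, rose by 2.94 in interneurons, and its age changes differed by 2.75. Kcnh4, an ELK channel gene, fell by 1.46 on the log2 scale in interneurons, and its age changes differed by -2.13.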

How the data were processed

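Total RNA from sorted cells was amplified, labelled and hybridized to Affymetrix Mouse Gene 1.0 ST arrays. The values deposited by the authors are log2 expression per probe set after RMA (background correction, quantile normalization and summary of probes), and the annotation release and genome build are not given in the sources used here. The table had 28192 probe sets, 12 arrays and 0 missing values. Of the probe sets, 21640 carried 1 gene symbol, 1321 several and 5231 none, and the last were left out. All 44 members matched RefSeq by Entrez identifier.

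One linear model over all 12 arrays was fitted with limma 3.58.1 in R 4.3.3, with no block term, and p-values were Benjamini-Hochberg adjusted over 22961 probe sets. A difference was called at an adjusted p under 0.05 with a fold over 2. The age-by-population contrast is IN P10 minus IN P0, less Pyr P12 minus Pyr P0. Where a group had no array above background, its fold is a lower bound against that level. The scripts were tested on simulated data. The p-values set each difference against the spread between arrays of a group, which limma pooled over the 4 groups and moderated across probe sets. With 3 arrays a group, the number of arrays limits the precision.

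Values by array are given for the 13 members with a called age-by-population difference and the 5 largest differences of each comparison, and other genes are named by their lists, up to 4 a comparison. Values by array of Kcnj10 were added after they were seen. The members and lists were chosen with earlier results of these data known. Alternatives were SAM, the 2 groups alone, limma-trend, the replicate letter as a block, filters on probe sets, array centring, a second quantile normalization, other thresholds and leaving out each array. Python 3.11.15 with matplotlib 3.10.9 was used for the figures.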

Additional observations from a re-analysis of the deposited data

Results flagged for a closer look

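For 13 members the change with age differed between interneurons and pyramidal cells by over 2-fold in limma's test of the difference itself (IN P10 minus IN P0, less Pyr P12 minus Pyr P0, on the log2 scale). The difference was negative for 10 of them. It was -2.96 for Kcnh3, -2.11 for Kcnip2, -1.95 for Kcnj6, -1.94 for Kcnh5 and -1.69 for Kcnip3. It was -1.57 for Kcnj9, -1.43 for Kcns1, -1.21 for Kcnk2, -1.05 for Kcnt1 and -1.02 for Kcnk4. For Kcnip1 it was 1.04, for Kcnh2 1.35 and for Kcnmb2 1.88. The older interneurons were sorted at P10 and the older pyramidal cells at P12, and this gap in age cannot be told apart from the population.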

How the results depend on the processing

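Several alternatives keep the log2 difference of a member as it is, so they could not reverse its sign. These were SAM, the 2 groups alone, limma-trend, the filter on dim probe sets, the replicate block and a stricter adjusted p. The count of reversals is therefore no test of them. Over 1432 alternative values of the 92 called member differences, 0 reversed and 16, of 8 differences, fell under the threshold. These 8 belonged to Kcns3, Kcnj10, Kcnq5, Kcnj3, Kcnip1, Kcnt1, Kcnk4 and Kcnma1 and are given in the report, except that the age-by-population difference of Kcnk4 was also -0.99 with array medians centred and -0.96 after a second quantile normalization. After that normalization Kcnq5 passed in IN P10 against Pyr P12 (-1.0, in place of -0.98). With a fold over 1.5, 26 members were called in IN P10 against IN P0 and 23 in the age-by-population contrast, in place of 16 and 13. With no fold threshold, 35 were called in IN P10 against IN P0, 40 in Pyr P12 against Pyr P0, 39 in IN P10 against Pyr P12, 35 in IN P0 against Pyr P0 and 30 in the age-by-population contrast. Leaving out each array gave 16 to 17 calls in IN P10 against IN P0, 26 in Pyr P12 against Pyr P0, 19 to 22 in IN P10 against Pyr P12, 15 to 16 in IN P0 against Pyr P0 and 11 to 14 age-by-population calls. In the age-by-population contrast Kcnip4 passed without Pyr P12 A or Pyr P0 B (1.02 each). The count of 11 to 14 includes calls of Kcnj2, which was below background on every interneuron array, so its age-by-population value is not read. Deviations of arrays of the same letter had correlations from -0.18 to 0.19 over 18 pairs, 6 over 0.1. Every pair of letter A was weakly positive (0.056 to 0.162), so a shared deviation is not excluded. The replicate block left the number of calls at 16 in IN P10 against IN P0, 26 in Pyr P12 against Pyr P0, 21 in IN P10 against Pyr P12, 16 in IN P0 against Pyr P0 and 13 in the age-by-population contrast. Signal below background limits Kcna5 and Kcnj2. Kcna4, Kcnj6, Kcnj10, Kcnk9, Kcnmb2 and Kcns2 also had a group with no array above the 99th percentile of the receptor probe sets. Their differences against such a group rest on values near background. With the 99th percentile of the receptor probe sets as background, 36 members were above it in every group, and with the 90th 42.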
